A study of Homo sapiens with 10 samples.

Results

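The 29 genes described here encode proteins that carry a cell from G1 into S phase and copy its DNA. They are the genes named CCNE1, CCNE2, E2F1, E2F2, E2F8, CDC6, CDT1, MCM2 to MCM7 (6 genes), MCM10, CDC45, GINS1, GINS2, CLSPN, PCNA, RFC2, RFC4, POLA1, FEN1, RRM2, TYMS, TK1, UHRF1, UNG and SLBP in both deposited count tables, out of 58735 genes in all. They were picked by name, with earlier results of these data known. RNA was sequenced from TPC-1 cells, a line established from a human papillary thyroid carcinoma and carrying a RET/PTC1 fusion. They carried an empty vector (EV, n = 5) or one that overexpresses the non-coding RNA PTCSC3-AS1 (OE, n = 5). Replicates 1 to 3 of each group were in a first deposited table (the first set, 6 libraries) and replicates 4 and 5 in another (the second set, 4 libraries). The sources used here do not give the promoter of the vector, whether both sets had the same vector, or whether the cells were a clone. They also leave out what sets the tables apart and whether replicates were separate cultures, so the p-values reflect how much these libraries vary, possibly for technical reasons. No gene in the tables is named PTCSC3-AS1, so the OE labels could not be checked against its level.

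Cyclin E, encoded by CCNE1 and CCNE2, activates the kinase CDK2 in late G1, which together with the cyclin D kinases phosphorylates RB1 and frees the E2F transcription factors. E2F1 and E2F2 then activate genes for replication, while E2F8 represses E2F targets later in S phase. CDC6 and CDT1 load the MCM2 to MCM7 helicase on origins in G1, which is called licensing, and CDC45 and the GINS complex turn it into the active helicase at S phase entry. Cancer cell lines in culture cycle, so these transcripts are present at substantial levels in them.

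The depth was 15761474 to 18066559 counts per library, and 20630 to 22029 genes had a count. Every one of the 29 genes passed the filter on low counts in all 6 comparisons, with 140 (E2F2) to 11390 (MCM4) counts in a library. Of 8 thyroid lineage markers, PAX8, FOXE1 and HHEX reached 1 CPM (counts scaled to the effective library size) on average, with PAX8 at 414 CPM, while NKX2-1, SLC5A5 and TSHR were at 0 in all libraries. Of 6 epithelial markers, KRT8, KRT18 and KRT7 reached 1 CPM and KRT19, EPCAM and CDH1 did not. The 6 fibroblast markers summed to 2.81 to 4.72 CPM in EV and 2.91 to 5.29 CPM in OE libraries, with COL1A2, COL3A1 and DCN at 0. The sums of the 6 leukocyte markers (CD3E at 0) and of the 5 endothelial markers (KDR at 0) were at most 1.73 and 1.195 CPM. EV replicate 2 stood apart from the other libraries of its set, as described last. For the 29 genes, the calls that change without it, and for the first set the directions, are given beside the results. The counts of the other gene lists were not repeated without it.

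Promoter stretches of 3 genes with a match to the E2F binding motif are shown, because E2F factors are the textbook regulators of these genes. They were taken, with the values seen, from the genes with a called difference between the sets whose stretch holds little or no annotated exon. Each line holds the 150 bases before the transcript start in RefSeq (GRCh38.p14), 5′ to 3′ on the gene's strand, which is the minus strand for all 3 genes. Capitals mark matches to the E2F motif on either strand.
E2F2 (chr1:23531234-23531383): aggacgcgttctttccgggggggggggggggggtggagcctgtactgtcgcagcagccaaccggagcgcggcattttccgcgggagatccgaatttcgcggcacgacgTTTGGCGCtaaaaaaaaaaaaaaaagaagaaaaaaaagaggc
E2F1 (chr20:33686386-33686535): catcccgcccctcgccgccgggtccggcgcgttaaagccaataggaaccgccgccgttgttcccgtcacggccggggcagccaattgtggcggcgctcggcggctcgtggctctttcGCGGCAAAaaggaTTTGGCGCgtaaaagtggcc
MCM6 (chr2:135876444-135876593): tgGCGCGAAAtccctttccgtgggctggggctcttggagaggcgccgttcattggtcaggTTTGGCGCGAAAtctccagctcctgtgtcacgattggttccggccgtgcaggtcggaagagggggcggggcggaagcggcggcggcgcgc
The E2F2 stretch held 1 match, the E2F1 stretch 2 and the MCM6 stretch 3, of which some overlap.

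The E2F motif was searched as TTTCCCGC, TTTCGCGC, TTTGCCGC and TTTGGCGC on both strands, with overlapping matches counted, in windows of 300 bases (250 before to 50 after the RefSeq start). RefSeq windows were matched for 25 of the 29 genes (not for CCNE2, MCM4, MCM5 and E2F8). For each of these, 1 window was kept, while the backgrounds count all windows and can hold more than 1 per gene. A match was present in 15 of 25 windows (60.0%), against 4.91% of 15049 promoters of genes tested and 3.31% of all 35116 promoters. Among genes called higher in the second set, 9 of 14 windows held one (64.3%), and among those not called 6 of 11 (54.5%). CCAAT, the motif of the factor NF-Y, was in 15 of 25 windows (60.0%), against 34.3% of promoters of genes tested. The CHR element (TTTGAA or TTCGAA, both strands), common in promoters of G2/M genes, was in 1 of 25 windows (4%), that of MCM6, against 11.6%. These are matches of letters and no measure of binding.

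To compare levels between genes, TPM values (counts divided by gene length, then scaled to one total per library) were computed from the counts and the deposited gene lengths. PCNA, the sliding clamp that holds polymerases on DNA, had the highest level at 561 ± 63.0 TPM (SD, n = 10 libraries). MCM4, a helicase subunit, followed at 304 ± 35.5 TPM, and FEN1, the nuclease that trims Okazaki fragments, at 251 ± 18.7 TPM. SLBP, which binds the stem-loop of histone mRNA, TK1, the thymidine salvage kinase, and MCM3 stood at 221 ± 24.0, 219 ± 43.0 and 188 ± 27.2 TPM. At the other end were CCNE2 at 20.7 ± 5.01, CCNE1 at 19.7 ± 2.87, E2F8 at 15.8 ± 2.97 and E2F2 at 10.6 ± 3.69 TPM. The remaining 19 genes lay between 23.0 TPM (POLA1) and 145 TPM (RRM2). The regulators of G1/S entry were thus near the bottom of the order, except E2F1 at 94.5 ± 19.9 TPM. Of 28 pairs of neighbours in this order, only PCNA and MCM4 had ranges over the 10 libraries that did not overlap. The 6 subunits of the MCM2 to MCM7 ring spanned 65.8 ± 10.3 TPM (MCM5) to 304 ± 35.5 TPM (MCM4). This order depends on the deposited lengths, of which MCM5 has the longest (7338 bases) and PCNA the shortest (1471 bases). In CPM, not divided by length, MCM5 averaged 124 in the first set and 156 in the second. That was above MCM6 (112 and 130 CPM) and MCM2 (89.6 and 123 CPM). PCNA averaged 227 and 247 CPM, below MCM4 at 562 and 659 CPM.

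The first comparison asked whether PTCSC3-AS1 overexpression changed these genes. None of the 29 genes passed the test over both sets (edgeR quasi-likelihood test with the set as a term, adjusted p under 0.05), and none of all 14881 genes tested did either (0%). At an unadjusted p under 0.05 there were 0 of the 29 genes, against 5.67% of all genes. DESeq2 called 7 genes and limma-voom 0, none among the 29. The log2 fold changes ran from -0.14 to 0.17, with a median of 0.04 against -0.01 over all genes tested. Of the 29, 21 were above 0, against 47.8%, and 8 below, against 52.2%. The widest of the 95% intervals reached -0.13 to 0.45 for E2F2 and -0.22 to 0.42 for CLSPN.

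MCM5 had the lowest p. It stood at 117, 116 and 115 CPM in EV and 142, 127 and 127 CPM in OE in the first set, and at 156 and 153 CPM in EV and 162 and 154 CPM in OE in the second. The OE libraries were above all EV libraries in the first set and overlapped them in the second (log2 fold change 0.13, SE 0.06, adjusted p = 0.853). GINS2, a subunit of the GINS complex, was at 33.9, 44.6 and 31.8 CPM in EV and 42.0, 45.7 and 44.1 CPM in OE, then at 41.8 and 46.6 CPM in EV and 45.1 and 46.2 CPM in OE (log2 fold change 0.17, SE 0.10, adjusted p = 0.857). Here EV replicate 2 lay among the OE libraries and the other first-set EV libraries lay below them. TK1 was at 90.1, 108 and 85.7 CPM in EV and 116, 106 and 104 CPM in OE, then at 127 and 141 CPM in EV and 129 and 150 CPM in OE (log2 fold change 0.15, SE 0.08, adjusted p = 0.861). CCNE2 leaned the other way, at 22.4, 22.1 and 22.6 CPM in EV and 20.03, 22.3 and 20.2 CPM in OE, then at 36.1 and 31.8 CPM in EV and 31.0 and 28.9 CPM in OE (log2 fold change -0.14, SE 0.08, adjusted p = 0.863). Its 2 second-set EV libraries were above the 2 OE libraries, and in the first set the groups overlapped. By role, the median log2 fold change was 0.06 for the 8 licensing genes, 0.08 for the 5 genes of origin firing and fork progress, 0.03 for cyclins and E2F factors, -0.04 for fork DNA synthesis, 0.07 for nucleotide supply and 0.05 for UHRF1, UNG and SLBP.

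**Figure D1:**
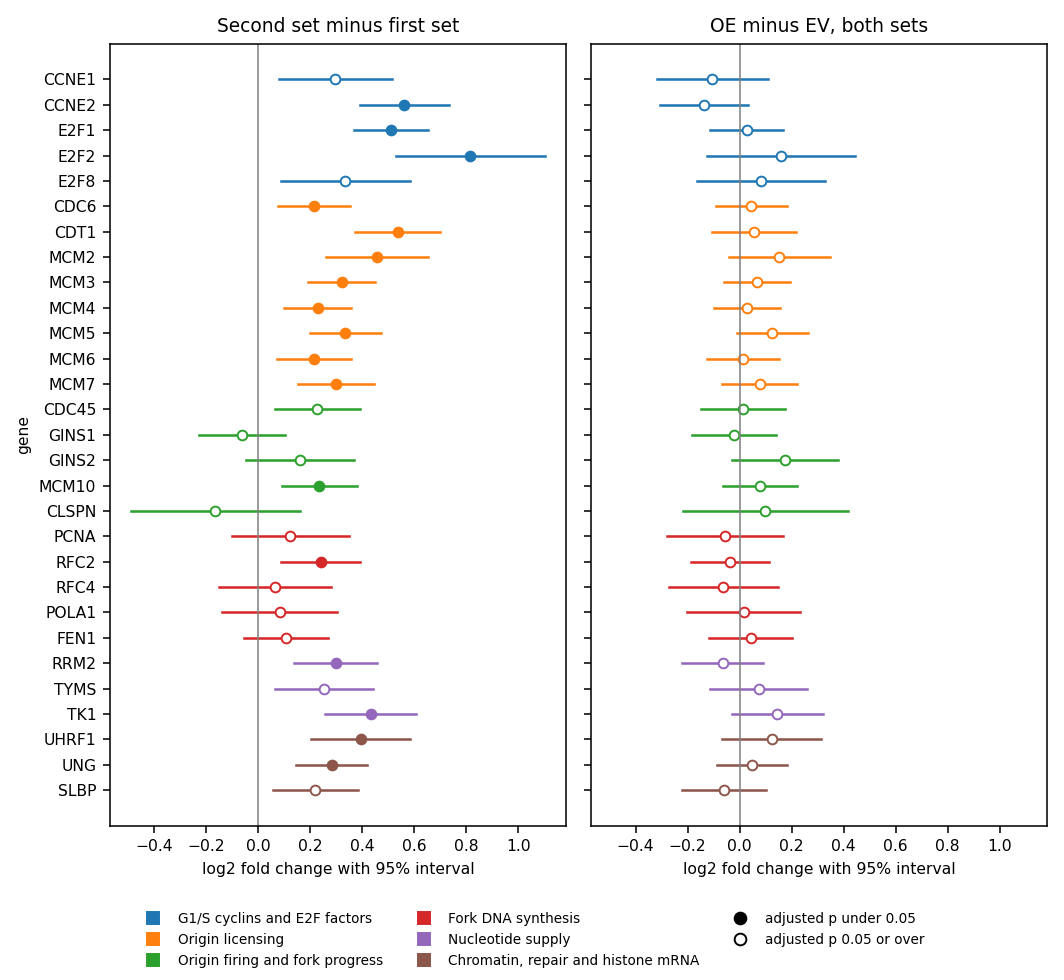
Log2 fold change (x axis) of each of the 29 genes (rows, coloured by role) between the sets (left, all 10 libraries) and between OE and EV over both sets (right), with 95% intervals from the edgeR fit; filled points have an adjusted p under 0.05. On the left 17 genes are filled, all to the right of 0, and on the right none is.

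Within the first set no gene of the 29 passed (edgeR, n = 3 per group), and 5 of 14340 genes tested did (0.0349%), all lower in OE. One of the 29 had an unadjusted p under 0.05 (background 8.84%). It was E2F2, at 11.7, 8.99 and 11.9 CPM in EV and 15.8, 12.3 and 14.8 CPM in OE (log2 fold change 0.39, SE 0.16, adjusted p = 0.541); every OE library was above every EV library. MCM5 (log2 fold change 0.19, SE 0.09, adjusted p = 0.579), MCM2 (log2 fold change 0.26, SE 0.13, adjusted p = 0.608) and GINS2 (log2 fold change 0.26, SE 0.13, adjusted p = 0.621) followed. MCM2, a helicase subunit, was at 88.8, 66.0 and 89.9 CPM in EV and 93.1, 104 and 95.7 CPM in OE, so its groups did not overlap, with EV replicate 2 the lowest. All OE libraries were above all EV libraries for 6 of the 29 genes (MCM2, MCM3, MCM5, TYMS, E2F2 and POLA1), against 8.51% of genes tested, and all EV above all OE for 0, against 8.48%. The median log2 fold change was 0.07 against -0.01, with 22 genes above 0 (background 47.7%) and 7 below (52.3%).

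Without EV replicate 2, 2 of the 29 genes were called higher in OE in the first set, beside 6.07% of all genes tested. They were GINS2 (log2 fold change 0.43, SE 0.09, edgeR adjusted p = 0.00314) and TK1 (0.31, SE 0.07, adjusted p = 0.00608). MCM2 went from 0.26 to 0.14 (SE 0.07, adjusted p = 0.238) and E2F2 from 0.39 to 0.28 (SE 0.15, adjusted p = 0.232). CLSPN, the checkpoint mediator claspin, changed sign with that library left out, from 0.13 to -0.12, as did PCNA (-0.05 to 0.15), RFC4 (-0.04 to 0.16), SLBP (-0.04 to 0.08), RRM2, RFC2 and MCM4, none of them passing the test either way. That fit rests on 2 EV and 3 OE libraries.

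The second set (n = 2 per group) showed no called gene among the 29 and none among 14419 tested (0%; 1.1% at an unadjusted p under 0.05, 0 of the 29). DESeq2 called 1 gene, which was none of the 29. CCNE2 had the lowest p (log2 fold change -0.18, SE 0.12, adjusted p = 1), then GINS1 (log2 fold change -0.11, SE 0.10, adjusted p = 1), E2F2 (log2 fold change -0.16, SE 0.15, adjusted p = 1) and SLBP (log2 fold change -0.09, SE 0.08, adjusted p = 1). E2F2, which stood higher in OE in the first set, was here at 24.8 and 21.5 CPM in EV and 22.5 and 19.1 CPM in OE, with overlapping groups. SLBP was at 139 and 148 CPM in EV and 136 and 134 CPM in OE, and GINS1, another GINS subunit, at 98.1 and 96.2 CPM in EV and 82.3 and 97.3 CPM in OE. Only SLBP of these 2 had both EV libraries above both OE libraries. With 1 library left out, CCNE2 ran from -0.27 to -0.09 (without EV replicate 4), E2F2 from -0.28 (without OE replicate 4) to -0.05 (without OE replicate 5) and GINS1 from -0.24 (without OE replicate 5) to -0.000361 (without OE replicate 4). The groups did not overlap in 1 gene with OE higher (MCM10, against 12.7% of genes tested) and in 5 with EV higher (CCNE1, CCNE2, MCM6, RFC4 and SLBP, against 12.3%). The median log2 fold change was -0.03 against 0.00 over all genes tested, with 10 of 29 above 0 (background 50.8%) and 19 below (49.2%).

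In the authors' deposited table, which compares single libraries of the second set, the log2 fold changes of the 29 genes ran from -0.25 to 0.18 for OE 4 over EV 4 and from -0.37 to 0.20 for OE 5 over EV 5. The adjusted p in the authors' deposited table was 1 for all 29 genes in both comparisons.

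The difference of the OE effect between the sets was tested with an interaction term, and no gene of the 29 passed, against 1 of 14881 genes (0.00672%). E2F2 had the lowest p (log2 difference -0.55, SE 0.24, unadjusted p = 0.0371, edgeR adjusted p = 1; 3.55% of all genes had an unadjusted p under 0.05). MCM2 (-0.26, SE 0.18), POLA1 (-0.28, SE 0.20) and E2F8 (-0.29, SE 0.23) followed, all with an adjusted p of 1. With 1 library left out, POLA1 ran from -0.52 (without EV replicate 4) to -0.0186 (without EV replicate 5), E2F8 from -0.40 (without EV replicate 3) to -0.17 (without EV replicate 2) and MCM2 from -0.34 to -0.15 (without EV replicate 2). The difference was below 0 for 25 of 29 genes, against 49% of all genes, and above 0 for 4, against 51%, with a median of -0.11 against 0.01. DESeq2 called 9 genes, none of them among the 29.

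More of these genes differed between the sets. In the second set 17 of the 29 genes were higher than in the first and 0 were lower (edgeR with the group as a term, adjusted p under 0.05). Among all 14881 genes tested 17.8% were called, 8.63% higher and 9.13% lower. At an unadjusted p under 0.05 there were 22 of the 29 genes, against 32.1%. The median log2 fold change was 0.25 against -0.01 over all genes tested, and 27 of 29 were above 0, against 49.1%, with 2 below, against 50.9%. Every second-set library was above every first-set library for 19 of the 29 genes, against 8.29%, and the opposite held for 0, against 7.92%. Whatever separates the sets, in culture or in processing, cannot be told apart from the set itself. In bulk RNA, a larger share of cells in late G1 or S phase also cannot be told apart from more RNA of these genes per cell.

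**Figure D2:**
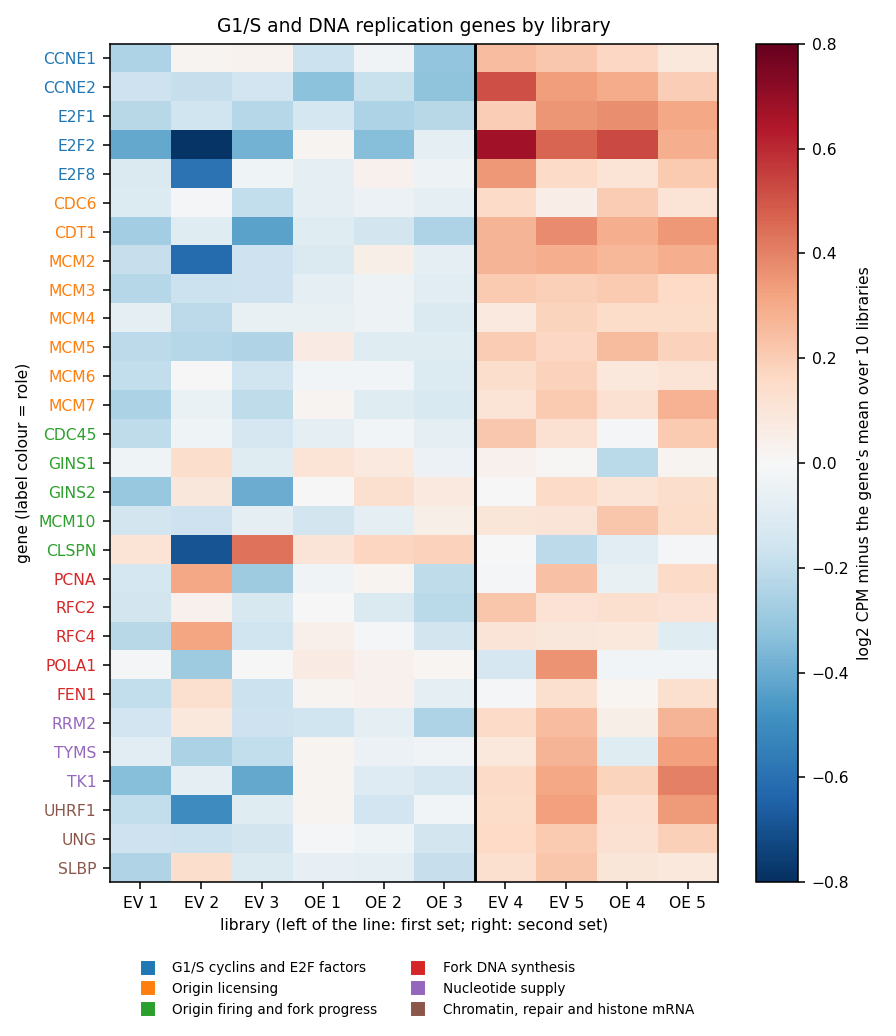
Log2 CPM of each gene (rows, label colour giving the role) in each library (columns, the line dividing the first set from the second) minus the gene's mean over the 10 libraries. The median over the 29 genes is between -0.19 and -0.02 in the 6 first-set libraries and between 0.12 and 0.21 in the 4 second-set libraries; EV 2 has the lowest values of E2F2 and CLSPN.

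Of the 5 cyclin and E2F genes, 3 rose in the second set, and the median log2 fold change of all 5 was 0.51. E2F2 (ENSG00000007968, hg38 chromosome 1, 23506430 to 23531220, minus strand) had the largest change of the 29 genes. Its first-set libraries were at 11.7, 8.99 and 11.9 CPM in EV and 15.8, 12.3 and 14.8 CPM in OE and its second-set libraries at 24.8 and 21.5 CPM in EV and 22.5 and 19.1 CPM in OE, with no overlap (log2 fold change 0.82, SE 0.13, adjusted p = 0.00121), a 1.76-fold difference with a 95% interval of 1.44 to 2.15. E2F1 (ENSG00000101412, chromosome 20, 33675683 to 33686404, minus strand) had a narrow range in the first set, at 56.5, 59.0 and 56.3 CPM in EV and 59.8, 55.6 and 56.5 CPM in OE. It was at 75.5 and 84.3 CPM in EV and 85.3 and 81.6 CPM in OE in the second set, above all of them (log2 fold change 0.51, SE 0.07, adjusted p = 0.000258). CCNE2 (ENSG00000175305, chromosome 8, 94879770 to 94896678, minus strand) was at 20.03 to 22.6 CPM in the first set and at 28.9 to 36.1 CPM in the second, again apart (log2 fold change 0.56, SE 0.08, adjusted p = 0.000489). CCNE1 stood at 11.3 to 14.4 and at 15.0 to 16.8 CPM, and E2F8 at 12.1 to 18.7 and at 19.7 to 23.2 CPM. Neither overlapped between the sets, and neither passed the test (log2 fold change 0.30, SE 0.10, adjusted p = 0.0558 and log2 fold change 0.33, SE 0.12, adjusted p = 0.0601).

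**Figure D3:**
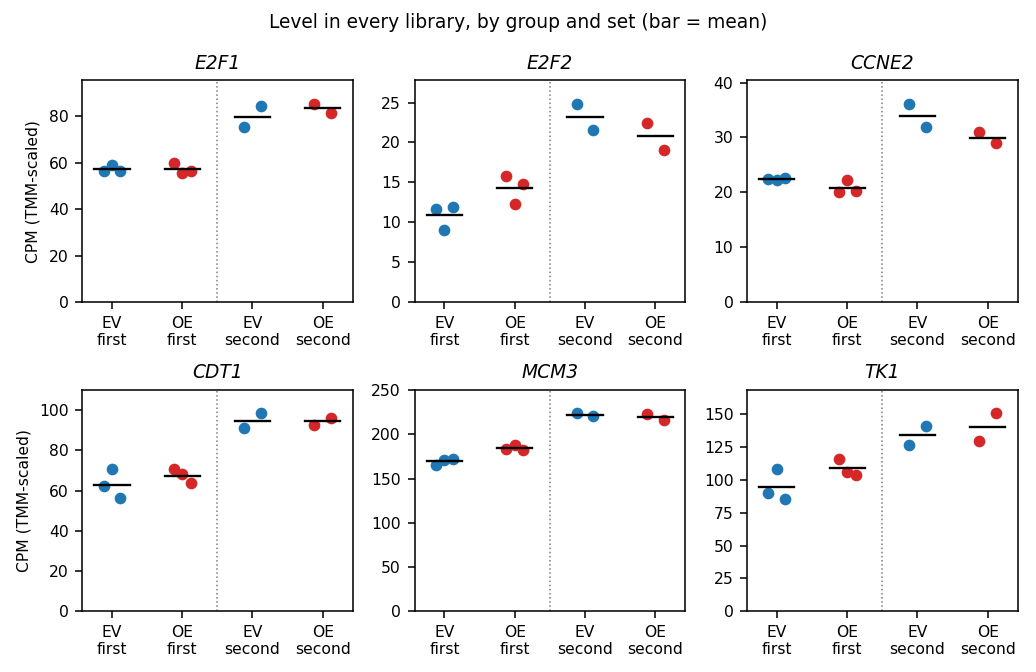
CPM (y axis, from 0) of 6 genes with a called difference between the sets, in every library (points, blue for EV and red for OE), with the mean of each group and set as a bar; the dotted line divides the sets. In each panel all 4 second-set libraries lie above all 6 first-set libraries.

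All 8 licensing genes rose, with log2 fold changes of 0.22 to 0.54 and a median of 0.31, and in all 8 the sets did not overlap. CDT1 (ENSG00000167513, chromosome 16, 88803213 to 88809258, plus strand), the loading factor that geminin restrains outside G1, was at 62.2, 70.7 and 56.1 CPM in EV and 70.6, 68.3 and 63.6 CPM in OE, then at 91.3 and 98.4 CPM in EV and 92.6 and 96.1 CPM in OE (log2 fold change 0.54, SE 0.08, adjusted p = 0.000465). CDC6, its partner, was at 79.1 to 89.7 CPM in the first set and at 94.1 to 104 CPM in the second (log2 fold change 0.22, SE 0.06, adjusted p = 0.0328). MCM2 (ENSG00000073111, chromosome 3, 127598223 to 127622436, plus strand) was at 122 to 124 CPM in the second set, above its first-set values (log2 fold change 0.46, SE 0.09, adjusted p = 0.00426). MCM3 was at 165, 172 and 173 CPM in EV and 184, 188 and 182 CPM in OE, then at 224 and 221 CPM in EV and 224 and 217 CPM in OE (log2 fold change 0.32, SE 0.06, adjusted p = 0.00271). MCM5 (log2 fold change 0.34, SE 0.06, adjusted p = 0.00333) and MCM7 (log2 fold change 0.30, SE 0.07, adjusted p = 0.00925) were close to it. MCM4 (log2 fold change 0.23, SE 0.06, adjusted p = 0.0183) and MCM6 (log2 fold change 0.22, SE 0.07, adjusted p = 0.0366) had smaller changes. MCM4 was at 518 to 583 CPM in the first set and at 633 to 679 CPM in the second, MCM6 at 104 to 119 and at 126 to 135 CPM, and MCM7 at 120 to 146 and at 155 to 174 CPM. Without EV replicate 5, MCM4 no longer passed (adjusted p = 0.0615). CDC6 and MCM6 passed in only 1 of the 10 fits that leave out a library, the one without EV replicate 2.

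Of the 5 genes of origin firing and fork progress, 1 rose, and their median log2 fold change was 0.16. MCM10, which helps activate the helicase, was at 51.2 to 59.2 CPM in the first set and at 61.3 to 66.9 CPM in the second (log2 fold change 0.24, SE 0.07, adjusted p = 0.0279). It passed in 3 of the 10 fits that leave out a library (those without EV 2, EV 3 or OE 3). CDC45, a helicase component, was at 35.1 to 39.8 and at 40.2 to 47.1 CPM and just missed (log2 fold change 0.23, SE 0.08, adjusted p = 0.0521). GINS2 (log2 fold change 0.16, SE 0.10, adjusted p = 0.274) and GINS1 (log2 fold change -0.06, SE 0.08, adjusted p = 0.623) overlapped between the sets. CLSPN was at 44.0, 25.2 and 54.9 CPM in EV and 43.6, 45.9 and 46.2 CPM in OE, then at 40.6 and 35.2 CPM in EV and 38.4 and 40.3 CPM in OE (log2 fold change -0.16, SE 0.15, adjusted p = 0.496). Its EV replicate 2 was the lowest library of all, and without it CLSPN was called lower in the second set (-0.28, SE 0.08, edgeR adjusted p = 0.0174).

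Of the 5 genes of DNA synthesis at the fork, 1 rose, with a median of 0.11. RFC2, a subunit of the clamp loader, was at 49.3 to 58.5 and at 61.9 to 66.6 CPM (log2 fold change 0.24, SE 0.07, adjusted p = 0.0324), and passed in 2 of the 10 fits that leave out a library (those without EV 2 or OE 1). PCNA was at 212, 290 and 192 CPM in EV and 229, 237 and 203 CPM in OE, then at 232 and 274 CPM in EV and 224 and 260 CPM in OE (log2 fold change 0.12, SE 0.11, adjusted p = 0.452). The sets overlapped, with EV replicate 2 the highest of all 10 libraries, and without it PCNA was called higher in the second set (0.22, SE 0.07, edgeR adjusted p = 0.0397). The clamp loader subunit RFC4 (log2 fold change 0.07, SE 0.10, adjusted p = 0.699), POLA1, the catalytic subunit of the priming polymerase (log2 fold change 0.08, SE 0.10, adjusted p = 0.620), and FEN1 (log2 fold change 0.11, SE 0.08, adjusted p = 0.360) also overlapped. POLA1 stood at 52.9 CPM in EV replicate 5 and at 33.8 to 43.0 CPM in the other 9 libraries. Without EV replicate 5 its log2 fold change was -0.05.

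Of the 3 nucleotide supply genes, 2 rose. TK1 (ENSG00000167900, chromosome 17, 78174075 to 78187233, minus strand) was at 85.7 to 116 CPM in the first set and at 127 to 150 CPM in the second (log2 fold change 0.43, SE 0.08, adjusted p = 0.00315). RRM2, the S-phase subunit of ribonucleotide reductase, was at 197, 231 and 194 CPM in EV and 195, 207 and 184 CPM in OE, then at 243 and 259 CPM in EV and 226 and 263 CPM in OE (log2 fold change 0.30, SE 0.07, adjusted p = 0.0141). Its sets overlapped through EV replicate 2, and without OE replicate 5 it no longer passed (adjusted p = 0.0598). TYMS, which makes thymidylate, was at 74.2, 65.9 and 68.6 CPM in EV and 79.7, 76.0 and 77.2 CPM in OE, then at 83.3 and 94.97 CPM in EV and 73.6 and 98.6 CPM in OE. OE replicate 4 fell among the first-set libraries and the test was missed (log2 fold change 0.25, SE 0.09, adjusted p = 0.0608). UHRF1, which guides maintenance methylation of new DNA, rose, at 86.2 to 124 CPM in the first set and at 134 to 155 CPM in the second (log2 fold change 0.39, SE 0.09, adjusted p = 0.00878). UNG, the uracil glycosylase of base excision repair, rose as well, at 82.2 to 92.2 and at 101 to 107 CPM (log2 fold change 0.28, SE 0.06, adjusted p = 0.00847). SLBP stood at 107 to 140 and at 134 to 148 CPM and missed the test (log2 fold change 0.22, SE 0.08, adjusted p = 0.0615).

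The call held in every fit that leaves out 1 of the 10 libraries for 11 genes (CCNE2, CDT1, MCM2, MCM3, MCM5, MCM7, UHRF1, E2F1, E2F2, UNG and TK1). Without EV replicate 2 the count was 24 of 29, with 23 higher and CLSPN lower, against 13.1% higher and 12.9% lower among all genes tested. The genes that this added to the higher ones were CCNE1, CDC45, E2F8, PCNA, SLBP and TYMS. Within EV libraries alone (3 against 2) 1 gene was called, E2F2 (log2 fold change 1.10, SE 0.18, edgeR adjusted p = 0.0483), against 0.19% of genes higher, and 28 of 29 were above 0. Within OE libraries alone 11 were called higher, against 6% of genes, and 26 of 29 were above 0. Over the 29 genes the log2 fold change between the sets correlated with the GC content of the transcript at r = 0.53, against 0.20 over all genes tested, and with log2 length at r = 0.06, against 0.08. These are correlations across genes, which share libraries and are not independent replicates. Median GC content was 50.7% for the 29 genes and 48.0% for all genes tested. With offsets for GC content and length, an alternative chosen after seeing the data, 23 of the 29 were called, all higher, against 9.4% of genes.

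The other genes of the pathway were described from lists chosen with earlier results of these data known. Of 26 upstream G1 regulators tested, 7 were higher and 2 lower in the second set, with a median log2 fold change of 0.11. All list counts stand beside 8.63% higher and 9.13% lower among all genes tested, with a median of -0.01. These counts were not repeated without EV replicate 2, which stood apart in some listed genes, in both directions. Among the G2/M genes, MKI67 was at 301 CPM in EV 2, against 553 and 620 CPM in EV 1 and EV 3. CCNB1 was at 374 CPM in EV 2, against 292 and 289 CPM. The CDK inhibitors went both ways, with CDKN1A and CDKN2B lower and CDKN1C and CDKN1B higher. CDKN1A, the p21 inhibitor of CDK2, was at 325 to 359 CPM in the first set. In the second set it was at 170 (EV 4), 286 (EV 5), 167 (OE 4) and 298 CPM (OE 5), all below the first set and lowest in replicate 4 (-0.56, SE 0.15, edgeR adjusted p = 0.0191). CDKN2B, an inhibitor of the cyclin D kinases, was lower by a log2 fold change of -0.69 (SE 0.15, adjusted p = 0.00594). CDKN1C, the p57 inhibitor, was at 6.94 to 9.27 CPM in the first set and at 12.7 (EV 4), 8.10 (EV 5), 14.9 (OE 4) and 9.18 CPM (OE 5) in the second (0.55, SE 0.16, adjusted p = 0.0309). It had the largest rise in the list, and its sets overlapped through replicate 5. CDKN1B, the p27 inhibitor, was at 48.2 to 55.0 and at 59.3 to 61.4 CPM (0.22, SE 0.07, adjusted p = 0.0338). CCND1 and CCND3, which encode cyclins D1 and D3, were higher (0.30, SE 0.08, adjusted p = 0.0148, and 0.27, SE 0.07, adjusted p = 0.0159). So were the RB1 relative RBL1 (0.36, SE 0.10, adjusted p = 0.0266), MYC and CDC25A, the phosphatase that activates CDK2. RB1 (0.05, SE 0.09) and CDK2 (0.10, SE 0.07) did not pass.

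Of 21 other licensing and firing genes 3 were higher and 0 lower (median 0.14): ORC1, the largest subunit of the origin recognition complex (0.45, SE 0.08, adjusted p = 0.00171), TICRR and WDHD1. Of 25 other replisome and chromatin assembly genes 12 were higher and 2 lower, with a median of 0.24. CHAF1B and CHAF1A, subunits of the histone chaperone CAF-1, rose (0.54, SE 0.07, adjusted p = 0.000373, and 0.41, SE 0.06, adjusted p = 0.000765), as did LIG1, the ligase that joins Okazaki fragments, and the histone chaperone ASF1B. RPA3 and PRIM2, subunits of the single-strand binding complex and of primase, were the 2 lower ones (-0.68, SE 0.14, and -0.26, SE 0.08). RPA3 stood at 52.1 CPM in EV replicate 2 and at 21.0 to 39.5 CPM in the others. Of 8 other nucleotide supply genes, 2 were higher (CTPS1 and RRM1, the partner of RRM2, at 0.26, SE 0.06, adjusted p = 0.00937) and 2 lower. These were SAMHD1, which degrades dNTPs, at -0.73 (SE 0.09, adjusted p = 0.000203), and RRM2B, the p53-inducible reductase subunit, at -0.37 (SE 0.08).

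Of 20 G2/M and mitosis genes 0 were higher and 2 lower (NUSAP1 at -0.47, SE 0.13, and CCNB2 at -0.24, SE 0.08), with a median of -0.05, so the share of lower genes was close to that over all genes. Of 11 replication-dependent histone genes tested (14 listed), 8 were lower and 0 higher, with a median of -1.51. HIST2H2BE had the lowest p, at 7.55 to 14.9 CPM in the first set and 1.37 to 2.998 CPM in the second (-2.39, SE 0.22, adjusted p = 1.86e-05). Levels differed widely within the list. In the second set HIST1H2AC was at 6.31 to 7.29 CPM, HIST4H4 at 0.114 to 0.446 CPM and HIST1H1E at 0 to 0.349 CPM. A count of 3 equals 0.166 to 0.190 CPM. The listed genes not tested (HIST1H3B, HIST1H4C and HIST2H4A) were at 0.453 CPM or less in every library. The histone medians thus rest in part on genes with few counts. Such histone transcripts largely lack a poly(A) tail, and the sources used here do not say how RNA was selected. In the comparison of OE with EV over both sets, 0 genes passed in all 6 lists (edgeR). At an unadjusted p under 0.05 there were 1, 0, 3, 1, 0 and 6 genes, in the order of the lists above, against 5.67% of all genes. The lists held 26, 21, 25, 8, 20 and 11 genes tested. All 11 histone genes were below 0, against 52.2% of all genes, with a median of -0.51. Their median was -0.87 in the first set, with 11 of 11 below 0. In the second set it was -0.05, with 6 of 9 below 0 and 3 above.

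**Figure D4:**
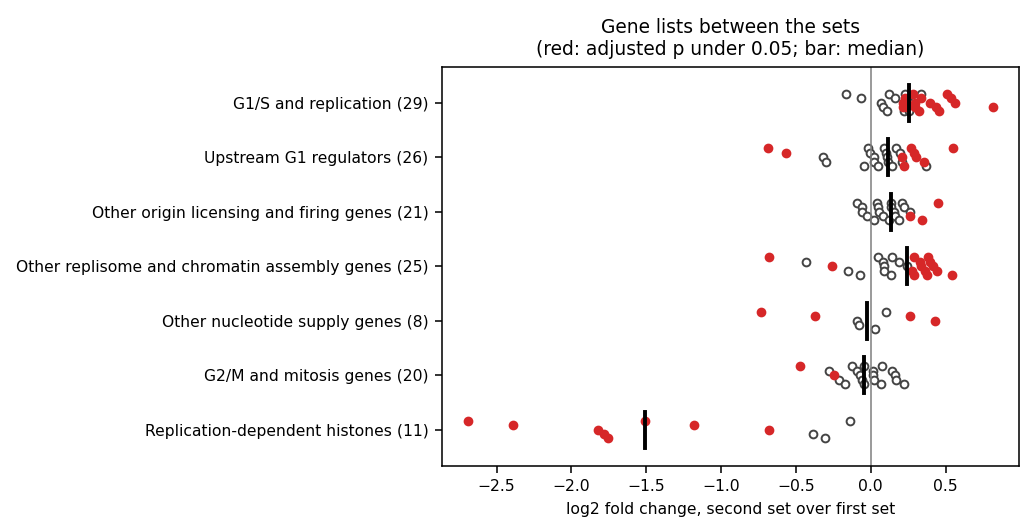
Log2 fold change of the second set over the first (x axis) for each gene tested (points) of the 29 genes and of 6 other lists (rows, number of genes in brackets); red points have an edgeR adjusted p under 0.05 and the black bar is the list's median. The medians are 0.25 for the 29 genes, 0.24 for the other replisome and chromatin assembly genes, -0.05 for G2/M genes and -1.51 for histones. Some of the histone genes had few counts.

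Within the second set, replicate number 5 was compared with number 4, each with 1 EV and 1 OE library. None of the 29 genes passed in the fit over all 10 libraries (edgeR), against 0.773% of genes tested (0.302% higher and 0.47% lower). TYMS alone reached an unadjusted p under 0.05, as 10.3% of all genes did (1 of 29). DESeq2 called 196 genes, 0 of them among the 29. By edgeR, TYMS came first (log2 fold change 0.30, SE 0.11, adjusted p = 0.381), then PCNA (log2 fold change 0.23, SE 0.11, adjusted p = 0.501), POLA1 (log2 fold change 0.26, SE 0.15, adjusted p = 0.591) and UHRF1 (log2 fold change 0.19, SE 0.11, adjusted p = 0.592). TYMS was at 94.97 (EV) and 98.6 CPM (OE) in replicate 5 and at 83.3 and 73.6 CPM in replicate 4. POLA1 differed in EV only, at 52.9 against 37.5 CPM, with 40.6 against 40.5 CPM in OE. The log2 fold change was above 0 for 18 of the 29 genes (background 50.6%) and below for 11 (49.4%). Replicate 5 was above replicate 4 in both groups for 13 genes, against 33.3% of genes, and below in both for 8, against 32.1%. With the second set fitted alone and the replicate number as a term, 6 genes were called higher in replicate 5 (PCNA, POLA1, RRM2, TK1, TYMS and UHRF1), against 7.28% of genes. That fit has 1 residual degree of freedom among its 4 libraries.

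EV replicate 2 differed from the other 2 first-set EV libraries in both directions. CLSPN was lower by a log2 difference of -0.96 against the mean of EV 1 and EV 3, followed by E2F8 (-0.51), MCM2 (-0.44), E2F2 (-0.39) and UHRF1 (-0.36). PCNA (0.52), RFC4 (0.51), GINS2 (0.44) and SLBP (0.32) were higher, and in all 17 of 29 genes were above 0. Over the 29 genes this difference correlated with log2 gene length at r = -0.56, and over all 14881 genes tested at r = -0.29. Both are descriptions across genes of the same libraries. The shortest gene, PCNA with 1471 bases, had the largest excess. MCM5 was the longest, with 7338 bases, and had a difference of -0.01. The part of RNA quality in this was not tested.

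**Figure D5:**
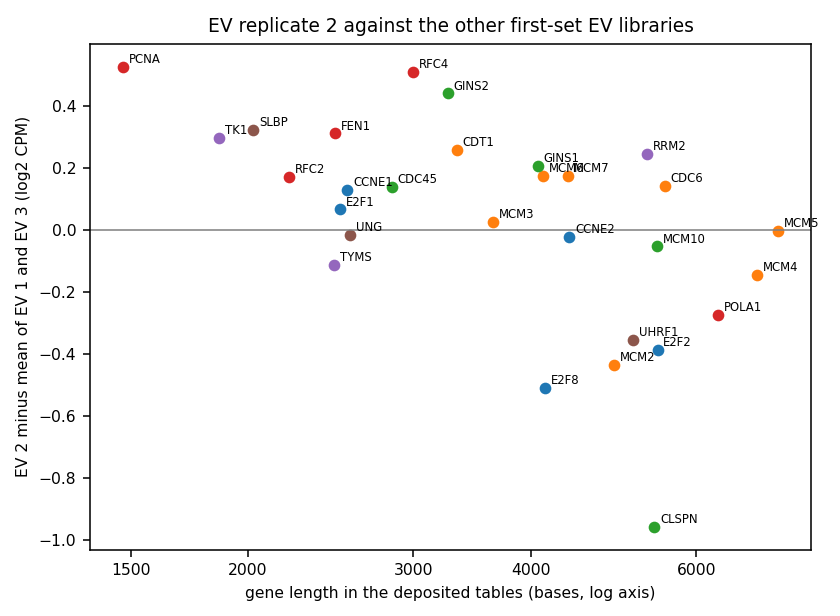
Difference of EV replicate 2 from the mean of EV replicates 1 and 3 (y axis, log2 CPM) against gene length in the deposited tables (x axis, bases, log axis) for the 29 genes, coloured by role. PCNA, the shortest gene, is the highest point, and the 5 lowest points (CLSPN, E2F8, MCM2, E2F2, UHRF1) have 4140 to 5457 bases.

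The spans of all 29 genes were identical in GENCODE 29. Another gene overlapped 13 of them, 10 on the opposite strand, among these INTS8 and NDUFAF6 at CCNE2, TPRA1 at MCM2, AP4M1 at MCM7, TYMSOS and ENOSF1 at TYMS, EIF4A2 at RFC4, GSE1 at GINS2 and TMEM258 at FEN1. The sources used here do not say whether reads were counted by strand, so reads of such pairs cannot be told apart where their exons overlap.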

How the data were processed

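RNA of 10 TPC-1 libraries was measured, 5 EV and 5 OE, grouped by their titles. Per the labels' protocols, RNA came from a TRIzol extraction with DNase I treatment and went into libraries of a NEBNext Ultra RNA kit sequenced in paired ends on a NovaSeq instrument. The submitters' processing notes name the build hg38 and the tools featureCounts 1.5.0-p3, HISAT2 2.0.5, fastp, CASAVA 1.8 and DESeq2 1.20.0; the sources used here do not state the counting strand. Per the file headers, the authors deposited a raw count per gene and library in 2 tables. The second also holds the authors' log2 fold changes and adjusted p-value columns for single pairs of libraries, per the file headers. The 14 deposited per-library columns of normalized values were not used.

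Counts were joined over 58735 genes and tested with edgeR 4.0.16 in R 4.3.3 (quasi-likelihood test, TMM scaling, the default filterByExpr filter, Benjamini-Hochberg adjusted p under 0.05 over all genes tested). DESeq2 1.42.0 and limma 3.58.1 (voom) were alternatives, as were other size factors, no filter, a replicate block, GC and length offsets, and leaving out each library. The scripts were tested on simulated data. Intervals are at the 95% level and assume the SE of the test. A count of 3 would equal 0.166 to 0.190 CPM of the total counts, before scaling to the effective library size. It takes no account of the spread between libraries. Within groups, every pair of libraries differed beyond counting noise (chi-square divided by its degrees of freedom, 4.30 to 53.1). The 29 genes, the pathway lists and the markers were chosen with earlier results of these data known. Values per library, or for some genes only their ranges, are given for genes past the threshold and, in a comparison with none, for the 4 with the lowest p. From each other list the text names called genes with the lowest p, plus CDKN1A, CCND1, RB1, CDK2 and RRM1. CDKN1B, CDKN1C, RBL1, MYC and CDC25A were added after their values were seen. So were RPA3 and PRIM2, as the called genes of their list that were lower.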

Additional observations from a re-analysis of the deposited data

Results flagged for a closer look

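The lowest or highest library of each group was set against the group's range for each of the 29 genes (58 groups of 5 libraries), and chance alone would flag about 1 in 20 groups. In 2 genes the extreme library stood far from the nearest other. CDC45 was at 46.7 CPM in OE replicate 5, with a gap to the next OE library of 0.774 of the group's range. TYMS was at 98.6 CPM in OE replicate 5, with a gap of 0.758 of the range. Both groups join libraries of the first and second set.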

How the results depend on the processing

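Whether PTCSC3-AS1 overexpression changed the 29 genes had 0 calls over both sets, in the second set and for the interaction under every alternative run (other size factors, no filter, DESeq2, voom, GC and length offsets, replicate block, each library left out). In the first set 0 to 2 were called with a library left out. Between the sets 14 to 23 of the 29 genes were called under the 5 alternatives that keep all libraries, all higher, and 12 to 24 with a library left out, of which CLSPN alone was lower. The count moved to 1 in EV libraries alone and to 11 in OE libraries alone. For replicate 5 against 4 it moved to 6 with the second set fitted alone.

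Counts over all genes tested moved more. Without the filter there were 23 over both sets (0 with it), 90 in the first set (5), 12 in the second (0), 28 for the interaction (1) and 289 for replicate 5 against 4 (115). DESeq2 called 7, 76, 1, 9 and 196 in the same order. GC and length offsets gave 8 in the first set, 3 for the interaction and 224 for the replicates. In EV libraries alone 61 genes differed between the sets (2642 in all libraries), and 2074 between the replicates in the second set alone. With 1 library left out the counts ran from 0 to 1578 in the first set (1578 without EV replicate 2), 0 to 1 in the second, 0 to 7 for the interaction, 1297 to 3837 between the sets and 18 to 420 between the replicates. The cause was not tested.

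The log2 fold change between the sets changed sign for GINS1 (-0.06), to 0.0143 with GC and length offsets and 0.0253 in EV libraries alone, and for POLA1 (0.08), to -0.0600 in OE libraries alone and between -0.0533 (without EV replicate 5) and 0.15 with a library left out. POLA1 between replicates 5 and 4 ran from -0.0048 to 0.51 with a library left out.

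By the rule that every pair's correlation exceed 0.1 over 3 or more pairs, replicate numbers did not pair the first-set libraries, and the 2 pairs of the second set are too few for it. Deviations of same-numbered libraries from their group means correlated across genes at -0.09, 0.01 and 0.15 in the first set and 0.28 in the second (-0.28 for unlike numbers, the same value by construction with 2 libraries a group), and EV 1 correlated best with OE 3. The replicate block left 0 of the 29 genes called, and over all genes gave 0 over both sets, 1 in the first set, 71 in the second and 3 for the interaction. No block was run between the sets or between replicates 5 and 4, since the number is nested in the set or is itself the contrast. Depth allowed 140 counts or more per gene and library. How much counting error, the spread between libraries and their number each limit the precision was not tested.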
